A study of Mus musculus with 4 samples.

Results

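Genes that C3H10T1/2 cells transcribed with a wild type histone and had all but lost with the K36M mutant histone are described here. C3H10T1/2 is a mouse line from C3H embryos with properties of multipotent mesenchyme. All 4 RNA sequencing libraries came from cells that stably expressed an H3.3 transgene with a FLAG-HA tag, carrying K36M in 2 libraries and wild type (WT) in the other 2. The cells were at passage 10 to 15, per the labels, and the endogenous H3.3 genes were present in both groups. The labels do not name the promoter of the transgene, and they leave it unsaid whether replicates came from different cultures. The p-values therefore speak of the spread among these libraries alone, which could be technical.

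A gene was taken as a member if it had at least 40 expected counts in each WT library and at most 20 over both K36M libraries together, leaving out symbols that start with Hox, Pcdh, Col, Kcn, Hist, Sprr or Zfp. Expected counts are RSEM's estimates of the reads of a gene and need not be whole. Of 20325 genes in the matrix 46 met the rule, out of 10983 with at least 40 counts in each WT library. Members were thus chosen by their expected counts in these same 4 libraries, so their fall in K36M cells is given as a description. The calls and counting intervals printed for members later on describe these libraries and are no evidence for the fall. The mirrored rule, with K36M and WT exchanged, held for 348 genes, but the K36M libraries together were 1.85 times as deep. After all libraries were thinned to the total of the shallowest, the rule held for 78 genes, the 46 among them, and the mirrored rule for 217.

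Histone H3 lysine 36 is methylated over the bodies of active genes and between genes, and the methyl mark hinders the Polycomb enzyme PRC2 from methylating lysine 27 of the same tail. The K36M histone blocks several lysine 36 methyltransferases. Mesenchymal progenitors keep many lineage genes at low levels and raise a chosen set when they become cartilage, bone, fat or tendon.

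Library totals were 56041798 and 34022137 expected counts in K36M and 25322433 and 23343297 in WT. The replicates of each group correlated at r = 0.999 over log2(CPM + 1). Transcripts of H3f3a, which encodes H3.3, stood at 389 and 409 CPM in K36M cells and at 694 and 687 CPM in WT cells. No source used here says whether transgene reads were counted on it, so it does not check the labels. Of 12 mesenchyme markers all were detected, and their summed level was 32110 and 30280 CPM in K36M cells and 50200 and 50530 CPM in WT cells. A few abundant genes weigh most in this sum. Fn1 averaged 5953 CPM in K36M and 18110 CPM in WT, and Col1a1 10190 and 7748 CPM. Of the 12 markers 6 were lower and 4 higher in K36M, with a median log2 fold change of -0.02.

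The members are a mixed group of small RNA share. Together they took 4.26 and 5.79 CPM in the K36M libraries and 422 and 434 CPM in the WT libraries, where CPM is the expected count divided by the scaled library size in units of 1e6 counts. Per member the K36M level was a median of 1.41% of the WT level, from 0% for Cmtm5 to 7.81% for Rassf4. All 46 are protein-coding genes in RefSeq. In bulk RNA, fewer cells that express a gene and less RNA per cell cannot be told apart.

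**Figure D1:**
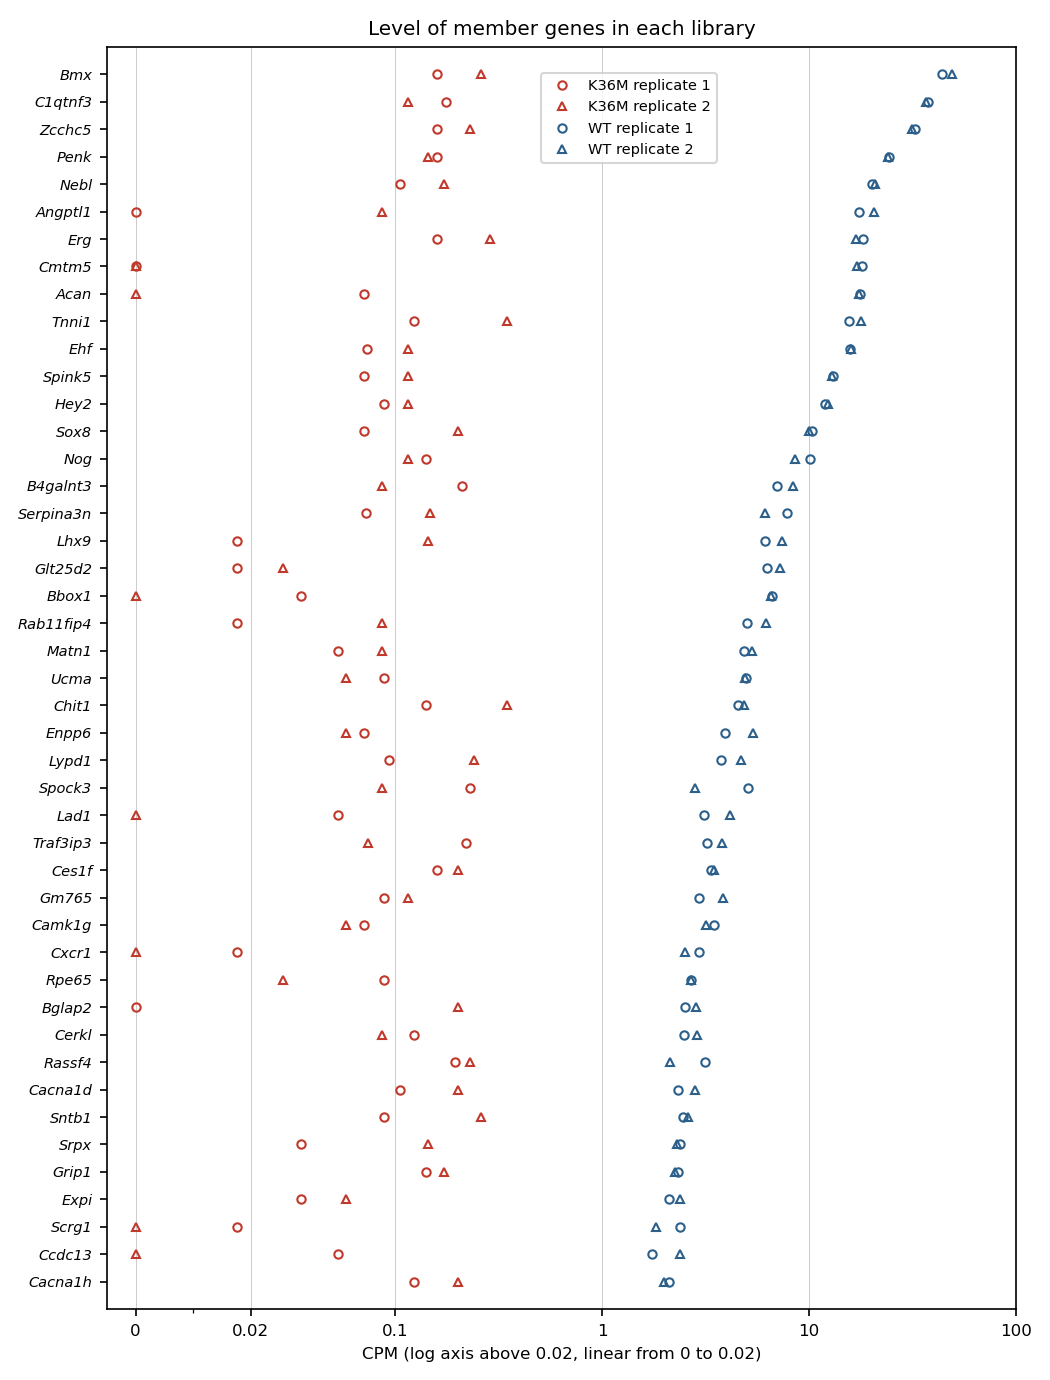
Level of the members in CPM, with 1 of the 46 not shown, in the 2 K36M libraries (red) and the 2 WT libraries (blue), with the axis linear from 0 to 0.02 and logarithmic above. No K36M point lies above 0.345 CPM and no WT point below 1.73 CPM, a gap that the rule sets.

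All 46 members entered the edgeR quasi-likelihood test across 13162 genes, each of them through its WT counts, and all 46 had an adjusted p under 0.05, against 37.1% of all tested genes called lower in K36M and 75.6% called in either direction. All 46 were over 10-fold lower, as were 1.7% of all tested genes. In all 46 both K36M libraries lay below both WT libraries, as in 43.1% of all tested genes. The rule fixed these counts, and nothing is read from them. The authors' deposited table of 594 genes, made from these same 4 libraries, holds all 46. Their ratio of K36M to WT there ran from 0.0017 to 0.0882 with a median of 0.0189. Since the libraries are the same, this is no separate evidence for the fall.

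**Figure D2:**
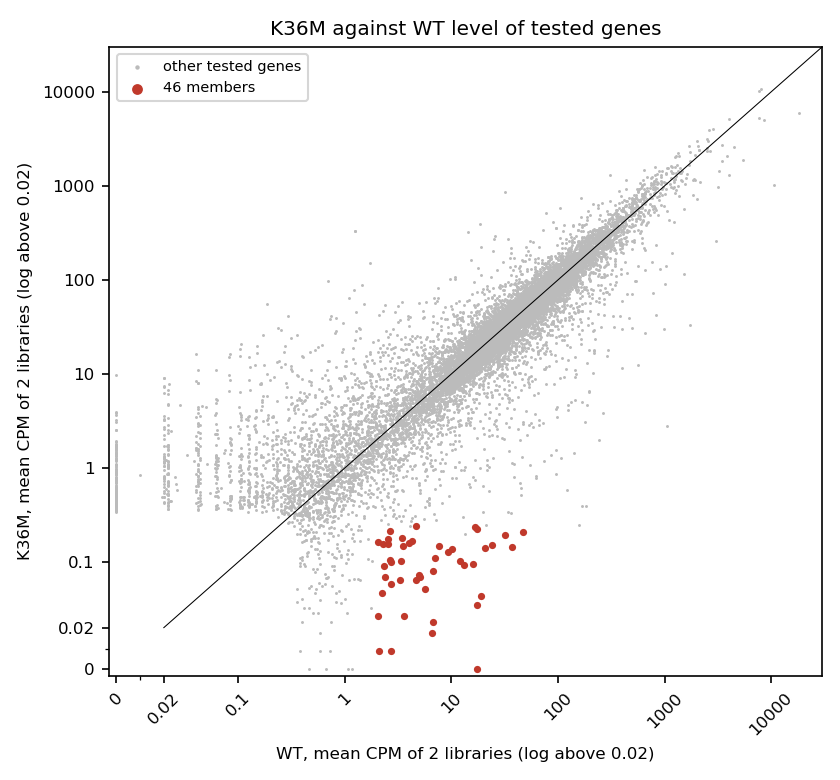
Mean CPM of 2 K36M libraries against mean CPM of 2 WT libraries for all tested genes (grey) and the 46 members (red), on axes logarithmic above 0.02 CPM. The members lie at the lower edge of the cloud, between 2.05 and 46.5 CPM in WT.

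Per length of exon, taken from GENCODE M21, the highest WT levels among the members were those of Penk (16.7 ± 0.151 CPM per kb, SD, n = 2), Cmtm5 (16.0 ± 0.655), Bmx (15.0 ± 1.12) and C1qtnf3 (14.5 ± 0.155). Bmx differs from Cmtm5 and from C1qtnf3 by less than its own SD. Cacna1h had the lowest with 0.248 ± 0.0089 CPM per kb. The median over the 46 was 1.91 CPM per kb.

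What the promoters of members look like is shown for 5 of them, the 3 with some of the highest WT levels (Cmtm5, Bmx and C1qtnf3) and 2 with a known place in cartilage and Notch biology (Acan and Hey2). Each run covers 250 bases before to 50 after the first listed start in RefSeq, 5′ to 3′ on the gene's strand, build GRCm38.p6. Capitals mark CpG dinucleotides in the first 4 and the TATA motif TATAAA in C1qtnf3.
Cmtm5, chr14:54936220-54936519, plus strand: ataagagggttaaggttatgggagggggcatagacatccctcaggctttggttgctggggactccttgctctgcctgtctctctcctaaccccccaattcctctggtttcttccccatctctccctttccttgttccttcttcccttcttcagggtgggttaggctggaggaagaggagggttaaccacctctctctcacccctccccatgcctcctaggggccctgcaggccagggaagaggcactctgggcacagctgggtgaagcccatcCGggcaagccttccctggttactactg
Bmx, chrX:164258144-164258443, minus strand: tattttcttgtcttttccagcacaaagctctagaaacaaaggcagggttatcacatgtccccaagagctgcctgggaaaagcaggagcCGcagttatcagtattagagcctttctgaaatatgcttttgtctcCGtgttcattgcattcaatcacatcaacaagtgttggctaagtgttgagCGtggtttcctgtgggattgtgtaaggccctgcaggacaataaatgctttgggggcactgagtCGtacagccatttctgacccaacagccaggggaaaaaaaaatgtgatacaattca
Acan, chr7:79052976-79053275, plus strand: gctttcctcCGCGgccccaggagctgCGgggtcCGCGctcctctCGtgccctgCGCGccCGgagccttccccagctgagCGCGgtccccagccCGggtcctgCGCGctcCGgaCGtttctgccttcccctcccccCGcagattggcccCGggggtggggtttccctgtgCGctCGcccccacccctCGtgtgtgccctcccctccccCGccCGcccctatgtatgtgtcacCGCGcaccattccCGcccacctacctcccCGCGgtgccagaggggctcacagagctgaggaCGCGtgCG
Hey2, chr10:30842734-30843033, minus strand: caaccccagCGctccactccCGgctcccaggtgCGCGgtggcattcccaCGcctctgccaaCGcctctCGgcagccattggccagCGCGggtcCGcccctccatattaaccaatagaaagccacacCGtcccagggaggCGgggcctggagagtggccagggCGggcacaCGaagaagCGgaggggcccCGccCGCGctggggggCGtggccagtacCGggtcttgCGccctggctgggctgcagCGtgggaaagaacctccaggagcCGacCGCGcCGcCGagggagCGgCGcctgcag
C1qtnf3, chr15:10952082-10952381, plus strand: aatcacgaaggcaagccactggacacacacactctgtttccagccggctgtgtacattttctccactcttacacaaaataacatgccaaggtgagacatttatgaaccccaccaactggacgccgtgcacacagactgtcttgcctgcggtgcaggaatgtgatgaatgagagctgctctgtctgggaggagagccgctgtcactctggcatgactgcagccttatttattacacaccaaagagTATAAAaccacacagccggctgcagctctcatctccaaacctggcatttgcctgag

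The Cmtm5 promoter holds 1 CpG and the Bmx promoter 4, while those of Acan and Hey2 hold 31 and 29. Of the 34 members with a promoter in RefSeq's table, 7 (20.6%) were CpG-rich (an observed to expected CpG ratio of at least 0.6 and at least 50% GC) and 27 were not, so the examples overstate the CpG-rich share. By the same measure 48.6% of the promoters of all genes in the matrix were CpG-rich. The share was 69.1% for other genes in the WT CPM range of the members and 30.8% for the mirrored rule. Among other genes from the lowest to the median WT CPM of the members it was 50.3%. The observed to expected CpG ratio was 0.0405 for Cmtm5, 0.268 for Bmx, 0.795 for Acan and 0.746 for Hey2. TATAAA, searched on both strands, occurs in 13.0% of the promoters of all genes in the matrix. The Hey2 window also holds GTGGGAA, a core of sites for the Notch factor RBPJ, as do 6.11% of all promoters. RefSeq's table gave a promoter for 34 of the 46 members, under 80%, so a comparison of base composition over the whole list is void.

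The cartilage, bone and matrix members were 9 genes, and 5 of them belong to the list of cartilage genes. C1qtnf3, a secreted protein made by cartilage, had 10 and 4 counts in the K36M libraries and 927 and 848 in the WT libraries. In CPM these are 0.176 and 0.115 in K36M and 37.4 and 36.8 in WT, a pooled ratio 243-fold lower. Acan encodes aggrecan, the large proteoglycan that gives cartilage its resistance to pressure. It had 4 and 0 counts in K36M and 436 and 400 in WT, 0.0704 and 0 CPM against 17.6 and 17.4 CPM, and was 400-fold lower by pooled counts.

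Matn1, the matrilin-1 gene of cartilage filaments, stood at 0.0528 and 0.0863 CPM in K36M and at 4.84 and 5.30 CPM in WT. Ucma, a small protein of the growth plate, stood at 0.0880 and 0.0576 CPM in K36M and at 4.96 and 4.91 CPM in WT. Scrg1, first found in scrapie-infected brain and also made during cartilage formation, had 1 and 0 counts in K36M and 59 and 42 in WT. Its pooled ratio was 193-fold lower with a 95% counting interval of 33.9 to 7714. The K36M counts of these 3 genes were at most 5 in a library, so the size of their fall is known only roughly. The WT counts were higher, but the 42 of Scrg1 was the lowest of any member and near the rule's limit of 40.

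Glt25d2 (Colgalt2 in RefSeq) adds galactose to hydroxylysines of collagen. It had 1 count in each K36M library and 156 and 167 in WT, 309-fold lower with an interval of 84.9 to 2564. Its relative Glt25d1, with the same enzyme activity, stood at 242 and 234 CPM in K36M and 223 and 227 CPM in WT and did not pass the test (adjusted p = 0.0692), though its call depends on scaling. Bglap2, an osteocalcin gene of bone, had 0 and 7.01 counts in K36M and 62.2 and 65.7 in WT. It has near-identical osteocalcin copies, between which reads may be split, and its counts are not whole, so its level is uncertain. Spock3, a testican proteoglycan, and Srpx, a sushi-repeat protein, kept 4.38% and 3.26% of the WT level.

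Around these 5 members, most of the cartilage list was lower too. Leaving the members out, 17 of 20 tested cartilage genes were lower in K36M, 1 was higher and 2 did not pass the test, with a median log2 fold change of -3.50. Over all tested genes 37.1% were lower, 38.5% were higher and the median was 0.00. The list was chosen with earlier results of these data known. Cytl1, Lect1, Hapln1 and Fmod were among those with the lowest ratios that still failed the rule because more than 20 K36M counts remained. Fmod, the fibromodulin gene, kept 0.933 and 1.64 CPM in K36M against 103 and 109 CPM in WT (edgeR adjusted p = 4.36e-20). Epyc, the epiphycan gene, failed only by its WT_1 count of 36.

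Secreted signals and protease inhibitors made up 7 members. Angptl1, an angiopoietin-related secreted protein, had 0 and 3 counts in K36M and 434 and 475 in WT, 0 and 0.0863 CPM against 17.5 and 20.6 CPM. Its pooled ratio was 580-fold lower with a counting interval of 198 to 2819. Penk, which encodes the precursor of enkephalin peptides, stood at 0.159 and 0.144 CPM in K36M and at 24.3 and 24.0 CPM in WT, 158-fold lower. Both WT libraries were close together for Penk and further apart for Angptl1, and no K36M library came near them.

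Nog encodes noggin, an antagonist that binds bone morphogenetic proteins, and stood at 0.141 and 0.115 CPM in K36M and at 10.1 and 8.52 CPM in WT. Spink5, a serine protease inhibitor of skin, stood at 0.0704 and 0.115 CPM in K36M and at 13.0 and 13.0 CPM in WT. Serpina3n, an inhibitor of the serpin family, stood at 0.0722 and 0.148 CPM in K36M and at 7.78 and 6.15 CPM in WT, with counts that are not whole. Serpina3g, its neighbour of the same stem, went the other way, at 6.02 and 6.61 CPM in K36M and 0.527 and 0.306 CPM in WT. Whether reads were split between these 2 genes was not tested. Of 6 tested Serpina relatives 2 were higher and 2 lower. Chit1, a chitinase, was at the edge of the rule with 8 and 12 counts in K36M and 112 in each WT library. Expi (Wfdc18 in RefSeq), a small secreted protein, kept 2 counts in each K36M library.

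The 5 transcription factor genes were all at or below 1.18% of their WT level. Erg, an ETS factor of endothelium and early cartilage, stood at 0.159 and 0.288 CPM in K36M and at 18.2 and 16.9 CPM in WT, 84.5-fold lower. Ehf, an ETS factor of epithelia, stood at 0.0729 and 0.115 CPM in K36M and at 15.7 and 15.9 CPM in WT, 178-fold lower. Hey2, a repressor induced by Notch signals, stood at 0.0880 and 0.115 CPM in K36M and at 11.98 and 12.29 CPM in WT, 123-fold lower. The WT libraries of each of the 3 genes lay close together, the K36M libraries were further apart in proportion, and the gap between the groups is what the rule selected.

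Sox8, which belongs with Sox9 and Sox10 to the SoxE group, stood at 0.0704 and 0.201 CPM in K36M and at 10.4 and 9.95 CPM in WT, 84.6-fold lower. Lhx9, a LIM homeobox gene of gonad and limb, stood at 0.0176 and 0.144 CPM in K36M and at 6.13 and 7.43 CPM in WT, 103-fold lower.

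Receptor, kinase and adaptor genes numbered 8. Bmx, a tyrosine kinase of the Tec family, had 9 counts in each K36M library and 1092 and 1127 in WT. Its level was 0.159 and 0.259 CPM in K36M and 44.1 and 49.0 CPM in WT, 236-fold lower. Cxcr1, a receptor for chemokines, had 1 and 0 counts in K36M and 73 and 58 in WT, 251-fold lower with an interval of 44.2 to 9983. Camk1g, a calcium-dependent kinase, Traf3ip3 and Rassf4, adaptors of signalling, Rab11fip4, a partner of Rab11 in vesicle traffic, Grip1, a scaffold of glutamate receptors, and Lypd1, of the Ly6 family, kept 0.78% to 7.81% of their WT level.

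Muscle and channel genes numbered 5. Nebl, which encodes the thin filament protein nebulette, stood at 0.106 and 0.173 CPM in K36M and at 20.1 and 20.9 CPM in WT, 156-fold lower. Tnni1, troponin I of slow muscle, stood at 0.123 and 0.345 CPM in K36M and at 15.6 and 17.8 CPM in WT, 80.3-fold lower. Cacna1d and Cacna1h, pore subunits of an L-type and a T-type calcium channel, and Sntb1, a syntrophin, kept 5.56%, 7.47% and 6.04% of the WT level.

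Enzyme genes numbered 6. Bbox1 catalyses the last step of carnitine synthesis. It had 2 and 0 counts in K36M and 165 and 150 in WT, 302-fold lower with an interval of 82.8 to 2501. B4galnt3, which adds N-acetylgalactosamine to glycans, stood at 0.211 and 0.0863 CPM in K36M and at 6.98 and 8.33 CPM in WT. Enpp6 (a choline phosphodiesterase), Rpe65 (the retinoid isomerase of the eye) and Ces1f (a carboxylesterase) kept 1.42%, 2.43% and 5.13%. Ces1f is 1 of several similar carboxylesterase genes, between which reads may be split.

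Of the other 6 members, Cmtm5, a membrane protein with a MARVEL domain, was the sole member with no K36M read. It had 0 counts in each K36M library and 446 and 391 in WT, 18.0 and 17.0 CPM. A count of 0 allows up to 3 counts over both K36M libraries, or 0.0328 CPM. Against that floor Cmtm5 was 534-fold lower, with the WT count taken as free of error. The exact counting interval of its ratio, computed as for the other members, has a lower limit of 433.5-fold. Zcchc5 (Rtl3 in RefSeq), a gene derived from a retrotransposon, stood at 0.159 and 0.230 CPM in K36M and at 32.4 and 31.6 CPM in WT, 172-fold lower. Lad1, the ladinin gene of epithelial basement membrane, had 3 and 0 counts in K36M and 77 and 95 in WT, 110-fold lower with an interval of 36.9 to 538. Ccdc13 had 3 and 0 counts in K36M and 43 and 55.0 in WT, 62.5-fold lower with an interval of 20.8 to 308. Cerkl and Gm765 kept 4.09% and 2.92%.

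How complete the loss was differed among members. Over both K36M libraries 8 members had 3 counts or fewer, 26 had 10 or fewer and 10 had 15 to 20. Exactly 1 of the K36M libraries was at 0 in 8 members. A pooled ratio over 100-fold was reached by 18 members and a ratio under 20-fold was left in 6. In WT the ratio of WT_1 to WT_2 ran from 0.727 (Ccdc13) to 1.80 (Spock3), with a median of 0.982. Spock3 had 126 counts in WT_1 and 65 in WT_2, and Rassf4 had 78.0 and 49, the 2 widest gaps upward.

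The threshold cut through a continuous range. Just inside by their K36M sum were Chit1 (20 counts), Erg, Rassf4 and Tnni1 (19 each) and Bmx (18). Just outside were Cd24a (21), Ang2 (22), Gm5886 (22.3), Rasl12 (22.4) and 2210020M01Rik (24.0). By the lower WT count, Scrg1 (42), Ccdc13 (43), Cacna1h (45.9) and Rassf4 (49) were just inside, and Epyc (36), Nat8 (35.9), Chdh (32.3), Cd200r4 (32.1) and Wfdc5 (32) just outside.

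Markers of other cells were read over whole lists. Erg is also an endothelial marker, and the other 11 endothelial markers summed to 26.5 and 24.0 CPM in K36M and 41.8 and 40.05 CPM in WT. Among them Tek, the angiopoietin receptor gene, was lower (4.73 ± 0.213 against 28.1 ± 1.14 CPM, SD, n = 2 each), Cdh5 and Egfl7 were higher, and Vwf did not pass the test. Without Tek the sum turned round, to 21.6 and 19.5 CPM in K36M and 12.9 and 12.8 CPM in WT. Kdr, Emcn, Robo4 and Cldn5 had 0 counts in WT, and Pecam1 stood at 0.0853 CPM there. Cdh5, Egfl7 and Vwf were detected in WT, at 0.641, 1.81 and 10.03 CPM. Epithelial markers summed to 25.6 and 27.3 CPM in K36M and 12.6 and 11.4 CPM in WT, with 4 of 5 tested genes higher, 1 lower, and Epcam and Cldn4 at 0 in all libraries. Cdh1, the E-cadherin gene, carried this sum with 22.4 and 24.1 CPM in K36M and 5.89 and 5.56 CPM in WT. Without it the sum turned round, to 3.31 and 3.22 CPM in K36M and 6.76 and 5.82 CPM in WT, and the lower gene was Krt14, a keratin. Blood and macrophage markers summed to 42.5 and 41.1 CPM in K36M and 8.31 and 9.31 CPM in WT, with 4 of 6 tested higher and 1 lower. Hba-a1, a haemoglobin gene, averaged 26.0 CPM in K36M and 0.171 CPM in WT, and the others summed to 15.9 and 15.8 CPM in K36M and 8.23 and 9.05 CPM in WT. Ptprc, Emr1 and Tyrobp had 0 counts in WT. Others of the list were detected there, with Cd14 at 4.008 CPM, Lyz2 at 1.765, Cd68 at 1.265 and Fcgr1 at 1.218 CPM. Fcgr1 was the lower gene, at 0.447 CPM in K36M. Neural and glial markers summed to 50.6 and 52.1 CPM in K36M and 113 and 116 CPM in WT, with 4 of 7 tested lower and 3 higher. S100b, which cartilage also expresses, carried this sum with 15.0 and 16.5 CPM in K36M and 91.1 and 94.7 CPM in WT. Without it the sum turned round, to 35.6 and 35.7 CPM in K36M and 21.7 and 21.1 CPM in WT. The part of these markers in the members' fall was not tested.

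Relatives of the members, genes that share their symbol up to the first digit, did not enter the rule and were tested. Of 151 tested relatives 57 were lower (37.7%) and 58 higher (38.4%) in K36M, near the 37.1% and 38.5% of all tested genes. A shared stem does not always mean a shared family, and 54 of the 151 are Rab genes. By the rule for named genes, the 5 with the largest changes were Cacna2d3, Serpina1d, Sox6, Hey1 and Lypd5. Cacna2d3 averaged 0.833 ± 0.0831 CPM and Serpina1d 0.767 ± 0.0626 CPM in K36M (SD, n = 2), and both had 0 counts in each WT library. Lypd5 had 0.494 ± 0.0479 CPM in K36M and 0.0193 ± 0.0273 CPM in WT. Families named in the next paragraphs were chosen after their values were seen.

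In some families, picked after their values were seen from relatives that as a whole were near the background, most tested relatives were lower. Hey, Srpx and Sntb hold 1 tested relative each. Of 6 tested Sox relatives of Sox8, 4 were lower, 1 was higher and Sox7 did not pass the test. Sox6, a partner of Sox9 in cartilage, stood at 0.792 and 0.921 CPM in K36M and at 91.9 and 101 CPM in WT (edgeR adjusted p = 6.44e-21). Sox4 was 11.7-fold lower and Sox13 5.39-fold lower, while Sox12 was 3.35-fold higher (22.3 ± 1.89 against 6.64 ± 0.548 CPM, SD, n = 2 each). Hey1, the closest relative of Hey2, stood at 0.564 and 0.691 CPM in K36M and at 15.7 and 13.9 CPM in WT (adjusted p = 2.26e-15). Matn3 and Matn4 were 10.5-fold and 12.5-fold lower, whereas Matn2, at 94.5 ± 0.942 CPM in K36M and 97.8 ± 0.251 CPM in WT, did not pass the test (adjusted p = 0.298) except under the authors' factors (log2 fold change -0.14, adjusted p = 0.00888). Srpx2 was 9.60-fold lower, and Sntb2 2.68-fold lower.

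Other families held both directions or were mostly higher. Of the tested relatives 4 of 6 were higher for Ces, 2 of 2 for Lypd and 1 of 2 for Tnni, and none of these was lower. Of 7 tested Rassf relatives 4 were higher and 1 lower, and of 5 tested Enpp relatives 3 were higher and 1 lower. Beside Angptl1, Angptl2 was 1.32-fold lower while Angptl4, a lipase inhibitor, stood at 48.6 and 44.96 CPM in K36M and at 2.18 and 2.39 CPM in WT (edgeR adjusted p = 7.37e-18), and Angptl6 was 3.06-fold higher. Beside Cmtm5, Cmtm3 and Cmtm4 were 2.02-fold and 1.65-fold higher, and Cmtm6 and Cmtm7 1.17-fold and 1.19-fold lower, the call of Cmtm6 being lost without WT replicate 1 (adjusted p = 0.0552). Of the calcium channel genes, Cacna1g and Cacna2d1 were 3.34-fold and 3.96-fold lower and Cacna1a and Cacna1c 2.29-fold and 1.82-fold higher. Lhx2 was 7.85-fold lower and Lhx6 2.49-fold higher. Tnni2, troponin I of fast muscle, was 2.02-fold higher and Tnni3 did not pass the test (adjusted p = 0.0998).

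**Figure D3:**
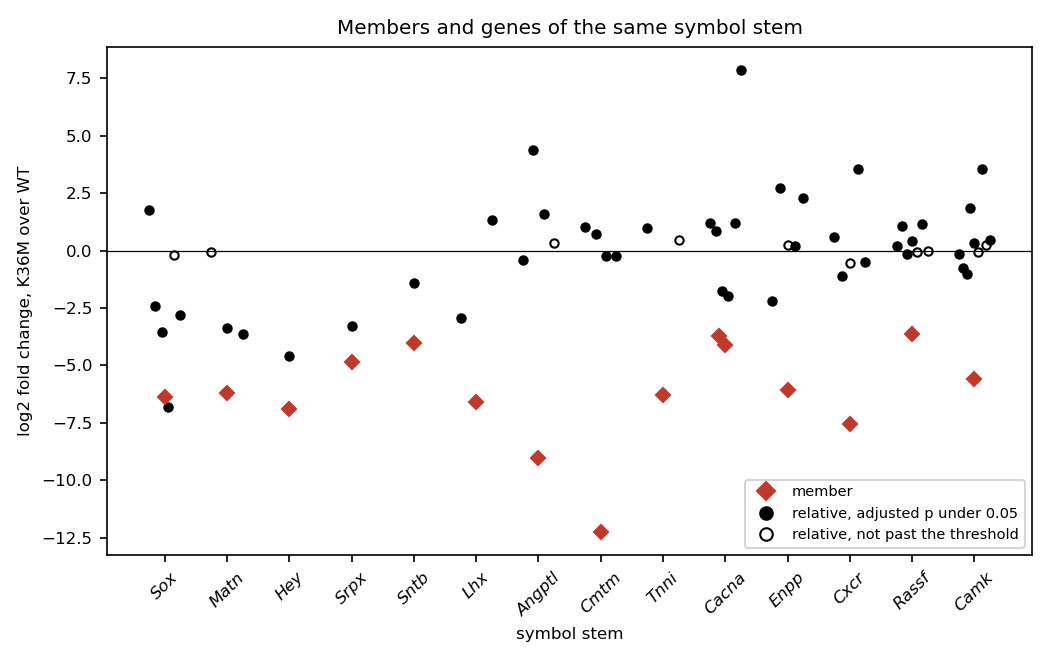
Log2 fold change of K36M over WT for members (red diamonds) and tested relatives (circles, open where the adjusted p was 0.05 or more) in 14 symbol stems. The Sox, Matn, Hey, Srpx and Sntb relatives lie mostly below 0, while those of Angptl, Cmtm, Tnni and Cacna lie on both sides or above.

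Notch pathway genes beside Hey2 were divided. Leaving Hey2 out, 7 of 14 tested genes were lower and 6 higher, with a median log2 fold change of -0.20. Notch1 fell to 31.9 CPM in K36M cells, against 256 CPM in WT cells, and Jag1 to 33.1 CPM, against 192 CPM in WT cells. Rbpj, the DNA-binding factor of the pathway, was higher, with 357 CPM in K36M and 96.2 CPM in WT. In the list of angiopoietins, angiopoietin-like genes and their receptors, 8 genes other than Angptl1 were tested, of which 3 were lower and 4 higher (median 0.96).

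Several members lie side by side in the genome. Gene order came from RefSeq on GRCm38, used for order only since the reads were mapped to mm9. Among tested genes Tnni1 and Lad1 are adjacent on chromosome 1, and Cacna1h and Sox8 on chromosome 17. Next to Bmx, Pir stood at 27.7 and 30.2 CPM in K36M and at 65.2 and 67.8 CPM in WT (edgeR adjusted p = 2.47e-13). The sources used here do not state strandedness, so reads of overlapping genes cannot be told apart.

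Of the chromosome 1 loci, 3 are given in more detail, chosen after their values were seen. On the sides of Tnni1 and Lad1, Phlda3 was 3.41-fold lower, Csrp1 2.73-fold lower, Tnnt2, cardiac troponin T, 2.15-fold lower and Pkp1, a plakophilin, 6.55-fold lower. Between the members Traf3ip3 and Camk1g lie 3 tested genes, and each was lower. Hsd11b1, which makes active glucocorticoid, stood at 0.863 and 1.32 CPM in K36M and at 39.6 and 38.3 CPM in WT (adjusted p = 1.32e-17). G0s2, a lipase inhibitor, stood at 0.440 and 0.720 CPM in K36M and at 122 in each WT library (adjusted p = 1.68e-21). Lamb3, a laminin chain, stood at 9.65 and 8.87 CPM in K36M and at 143.7 and 142.5 CPM in WT (adjusted p = 1.43e-20). The run ended at Plxna2, which was 1.43-fold higher. Beside Chit1, the related Chi3l1 was 10.2-fold lower. Genes of the same loci and of other chromosome 1 loci also went the other way. Kif21b, further along from Lad1, had a log2 fold change of 1.37, and Tmem183a and Cyb5r1, further along from Chit1, had 0.20 and 0.40. Beside Glt25d2 Rgl1 was higher (log2 fold change 1.53), beside Cxcr1 Cxcr2 was higher (0.58), and beside Lhx9 Nek7 did not pass the test (-0.04, edgeR adjusted p = 0.377).

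Over all members, 86 tested genes were nearest neighbours that are no members. Of these 48 (55.8%) were lower and 28 (32.6%) higher in K36M, with a median log2 fold change of -0.36, against 37.1% lower and 38.5% higher over all tested genes. The share that was lower was 55.6% at the second gene away, 42.9% at the third, 46.7% at the fifth and 39.1% at the tenth. For the 348 genes of the mirrored rule 26.8% of the nearest neighbours were lower and 46.9% higher. Some neighbours are relatives or share a chromosome, so they are not independent of each other, and the difference in shares was not tested.

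**Figure D4:**
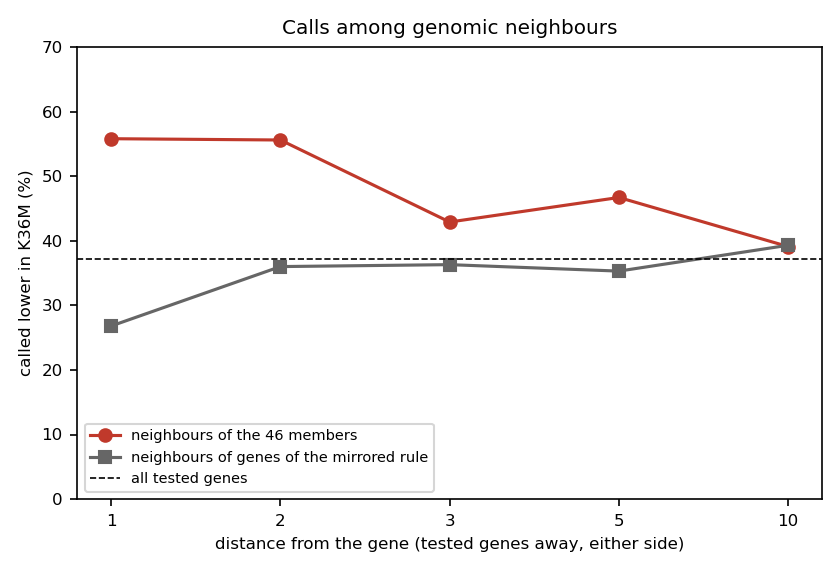
Share of tested genes called lower in K36M (edgeR, adjusted p under 0.05) at 1, 2, 3, 5 and 10 tested genes from a member (red) or from a gene of the mirrored rule (grey), with the 37.1% of all tested genes dashed. The share near members was 55.8% next to them and 39.1% at the tenth gene.

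The neighbours with the largest changes were Jakmip2 beside Spink5 (1.76 ± 0.150 CPM in K36M and 0.0217 ± 0.0307 CPM in WT, SD, n = 2 each), 8430408G22Rik beside Rassf4 (0.343 ± 0.0929 and 19.8 ± 1.34 CPM), Tpsab1, a mast cell tryptase, beside Cacna1h (1.14 ± 0.05 and 0.0202 ± 0.0285 CPM), Hsd11b1 and Fibin beside Bbox1 (4.65 ± 0.186 and 124 ± 4.10 CPM). So 3 of these 5 were lower and 2 higher. On the sides of Acan, by contrast, Isg20 and Mfge8 were 1.85-fold and 1.42-fold higher.

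Chromosome 1 held 10 of the 46 members (21.7%), against 5.71% of the tested genes with a RefSeq position. Among the other tested genes of chromosome 1, 54.3% were lower in K36M with a median log2 fold change of -0.19. Of the 18 nearest neighbours on chromosome 1, 14 were lower, 3 were higher and 1 did not pass the test, and of the 68 on other chromosomes 34 were lower and 25 higher. Chromosome 14, with 2 members, had the highest share of other genes lower (58.0%), and chromosome 11, with 3 members, the lowest (19.3%). The part of such shifts of whole chromosomes in the members' fall was not tested, and the chromosome copy number of the cells was not analysed here.

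**Figure D5:**
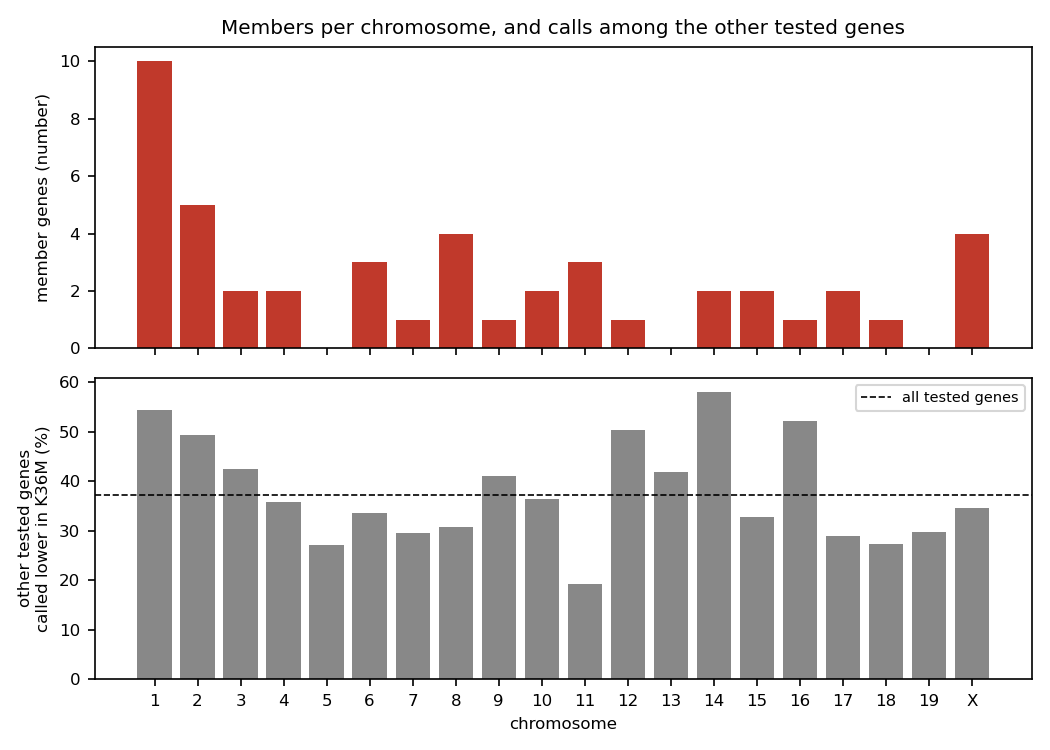
Number of members on each chromosome (top, red) and share of the other tested genes of that chromosome called lower in K36M by edgeR (bottom, grey), with the 37.1% of all tested genes dashed. Chromosome 1 holds 10 members and 54.3% of its other genes were lower.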

How the data were processed

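RNA was sequenced in 4 libraries, 2 per group, each mapped to its group by its title. The submitters' processing notes name Bowtie 1.0.0, RSEM 1.2.12 and the mm9 build. The deposited matrix holds expected counts per gene symbol, as produced by RSEM per the file headers. The authors' second deposited table holds log2 values per library and a linear ratio (fold) of K36M over WT. Annotation and strand setting are not given in the sources used here.

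Rounded expected counts entered edgeR 4.0.16 under R 4.3.3 (filterByExpr, TMM, quasi-likelihood F test, Benjamini-Hochberg over 13162 genes, called at an adjusted p under 0.05). CPM use TMM library sizes. Pooled ratios divide the summed counts of each group by its depth, with exact Clopper-Pearson 95% intervals, and a floor of 3 counts (0.0328 CPM over K36M, 0.0628 over WT). Both cover counting error only. Alternatives were other scalings, no filter, DESeq2 1.42.0, a replicate block, thinning, each replicate left out and other thresholds of the rule. Members, gene lists and role groups were chosen with earlier results of these data known. Any member could be named, but 1 of the 46 is counted and not reported here by name or value. By rule, values per library went to the 20 with the highest WT CPM and to list members. Those of other members (Chit1, Spock3, Lad1, Cxcr1, Bglap2, Expi, Rassf4 and Ccdc13) were added after their values were seen. By rule, 5 relatives and 5 neighbours with the largest changes were named. Any other gene was named after its values were seen.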

Additional observations from a re-analysis of the deposited data

How the results depend on the processing

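The number of members depends on the rule's thresholds and on depth. It was 70 and 27 with at least 20 and 80 WT counts, and 26 and 80 with at most 10 and 40 K36M counts. It was 78 after thinning, 48 with no symbol left out, and 47 and 48 without WT replicate 1 and 2. Without K36M replicate 1 and 2 it was 54 and 45, but there the limit was 10 counts in the remaining K36M library, and these libraries differ in depth. The 46 members were lower under each of the 12 alternative fits, a direction that the rule fixes and that is no sign of stability. All-gene calls were 4880 lower and 5072 higher, and ranged from 4122 to 5708 lower and from 4357 to 5541 higher. The authors' factors gave the 5708 and the 4357, DESeq2 the 4122 and total counts the 5541. The labels do not say whether replicate numbers pair the samples. The WT and K36M replicate differences correlated at 0.000605 over genes, so no shared shift was seen, which cannot show how the cultures were handled. With the replicate block 4793 genes were lower and 5001 higher. Neighbours called lower ranged from 43 to 51 and relatives from 43 to 68. In the cartilage list the genes called higher numbered 2, not 1, under upper quartile scaling, under total counts and without K36M replicate 2 (range 1 to 2 over left-out replicates). Without WT replicate 2 the log2 fold change of Sox7, not past the threshold, was 1.09 in place of -0.19, and without WT replicate 1 it was -0.90. That of Matn2 was 0.00 under total counts, and that of Glt25d1 was -0.01 under the authors' factors but 0.12 and past the threshold under upper quartile scaling. The cause was not tested. Of 347 counts under alternatives 339 stayed within 1.5 times the main count. Depth limits the fold of members with few K36M reads.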

Other observations

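The rule left out 2 potassium channel genes by their symbols. Kcne2 had 11 and 7 counts in K36M and 331 and 316 in WT, and Kcns1 had 4.07 and 2 counts in K36M and 121 and 94 in WT.

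Lists with no member in them held genes of both directions. Over all tested genes 37.1% were lower and 38.5% higher, and differences of these lists from those shares were not tested. Of 12 tested tendon and ligament genes 8 were lower and 4 higher in K36M, with a median log2 fold change of -0.55. Of 9 secreted Wnt modulators 3 were lower and 6 higher (median 1.88). The summed level of the Wnt list went the other way, with 140.6 and 139.7 CPM in K36M and 592.8 and 590.9 CPM in WT. Among its 3 lower genes, Sfrp2 averaged 0.394 CPM in K36M and 184 CPM in WT, and Rspo2 41.5 and 329 CPM. Of 18 genes of natriuretic, cyclic nucleotide and vasoactive signalling 6 were lower, 9 higher and 3 did not pass the edgeR test (median 0.26). Of 12 mesenchyme markers 6 were lower and 4 higher (median -0.02).

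Beside Sntb1, Has2, which makes hyaluronan, stood at 1.07 and 0.835 CPM in K36M and at 20.1 and 22.6 CPM in WT (edgeR adjusted p = 5.2e-16). Beside Zcchc5, the lysophosphatidic acid receptor gene Lpar4 stood at 2.38 and 3.02 CPM in K36M and at 58.5 and 58.0 CPM in WT (adjusted p = 7.82e-19). Prelp and Fmod, small leucine-rich proteoglycan genes near Chit1 on chromosome 1, were 52.8-fold and 82.5-fold lower. Ces1a, a relative of Ces1f, was 9.29-fold higher.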
